A study of Mus musculus with 4 samples.

Results

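This report compares 2 of the 4 libraries of an RNA sequencing study of mouse T cells, the library labelled as a double knockout (KO) of Itch and WWP2 and the WWP2 KO library, gene by gene. By label the libraries differ in Itch alone, but their Wwp2 reads, given below, differ too, so the loss of WWP2 is not held constant. Of 21937 genes in the deposited count table, the 9926 with a mean of at least 2 CPM over the 4 libraries were measured, CPM being reads scaled to a common library size. All 4 libraries came from splenic CD4+ T cells of B6 mice aged 6 weeks, stimulated with PMA, a phorbol ester, and ionomycin, a calcium ionophore. The genotypes were wild type, Itch f/f with Cd4cre ("Itch KO"), WWP2-/- ("WWP2 KO") and a double KO whose label names both genes but not the alleles. Cd4cre deletes floxed alleles in the T lineage, whereas the WWP2-/- label names no promoter or cell type. Each genotype had 1 library, so the comparison has no replicate check and no test. The length of the stimulation and the number of mice pooled for each library were not stated in the labels.

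Itch and WWP2 are related ubiquitin ligases of the NEDD4 family, which join ubiquitin to substrate proteins through a catalytic HECT domain and bind them through WW domains. Itch is known for restraining T helper 2 (TH2) responses, in part by driving degradation of the transcription factor JunB, and mice without it develop a TH2-biased inflammatory disease. PMA activates protein kinase C and Ras, and ionomycin raises cytosolic calcium, so that together they bypass the T cell receptor and switch on NFAT, AP-1 and NF-kB target genes. The transcripts in these libraries are therefore those of cells driven to show which cytokines they can make.

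The targeted genes come first because they check the labels. The library labelled double KO held 1135 Wwp2 reads, beside 1363 in wild type, 1332 in Itch KO and only 4 in WWP2 KO. The WWP2 KO library thus lacked nearly all Wwp2 reads, and the library labelled double KO held them at 61.1 CPM, 262-fold above WWP2 KO (95% counting interval 102 to 962). That goes against the label, and the library is called by its label alone throughout. Every difference described here therefore also separates a library with Wwp2 reads from a library without them. Itch had 2083, 1914, 1996 and 2389 reads in the same order, a log2 ratio of 0.14 between the libraries compared. A count over the whole gene checks nothing about a floxed exon, so the Itch genotype could not be read from these data.

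The libraries were close in depth, with 17130747 to 17990392 counted reads, and their 10 most abundant genes took 6.23% to 7.13% of reads. Of 12 genes that mark CD4+ T cells, all 12 were measured. By the rule given next, Cd4, Cd3g and Thy1 rose from WWP2 KO to the library labelled double KO, and Cd5 fell. Cd4 itself had 4069, 4262, 2901 and 9441 reads in the order wild type, Itch KO, WWP2 KO, labelled double KO, which holds wherever 4 values stand together below.

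A gene was said to rise or fall where its log2 ratio, labelled double KO to WWP2 KO, was at least 1 in size (2-fold) and the exact 95% binomial interval of the fold, which covers counting error only, excluded 1. By that rule 1155 genes rose, 11.6% of those measured, and 601 fell, 6.05%. The gains were the larger: 500 genes rose and 87 fell at least 4-fold, 116 rose and 5 fell at least 16-fold, and 60 rose and 0 fell at least 32-fold. The median log2 ratio over all measured genes was -0.03, and the middle of the distribution was narrow, from -0.41 at the 25th percentile to 0.43 at the 75th. Genes that rose took 11.2% of reads in the library labelled double KO, up from 3.16% in WWP2 KO. Genes that fell took 3.14%, down from 7.72%. In RNA from bulk cells, fewer cells of a type and less RNA per cell cannot be told apart.

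**Figure D1:**
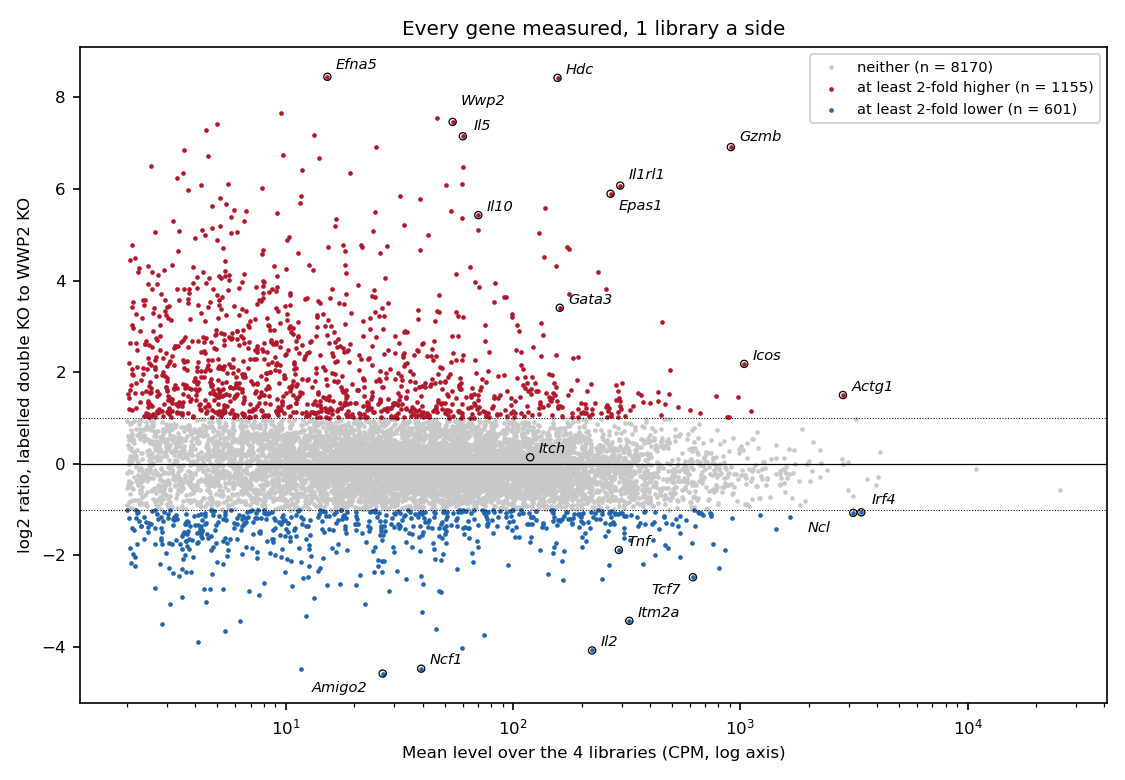
Each point is 1 of 9926 measured genes. The x axis gives its mean level over the 4 libraries in CPM on a log axis and the y axis its log2 ratio, labelled double KO to WWP2 KO. Red points are the 1155 genes that rose and blue points the 601 that fell, and dotted lines mark 2-fold. The red points reach log2 8.45 (Efna5), whereas the lowest blue point stands at -4.58 (Amigo2).

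The share of genes past 2-fold changed with abundance. Among 2012 genes with a mean of 2 to 10 CPM, 26.3% rose and 10.4% fell, while among the 1096 most abundant genes 5.29% rose and 8.03% fell. The filter had a part in this, since 179 of the 1155 genes that rose had a mean under 2 CPM in the other 3 libraries and were measured only through the library labelled double KO. At the filter, the 52 genes with a mean of 2 to 2.1 CPM had a median log2 ratio of 0.16, and the 46 genes left out at 1.9 to 2 CPM one of -0.02. At the 2-fold line, 106 genes lay within 0.1 above log2 1 and 133 within 0.1 below it, with 124 and 165 on the lower side.

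Counting error bounded the calls unevenly. Of genes that rose, 61 had fewer than 10 reads in WWP2 KO, 4 of them none. Of genes that fell, 5 had fewer than 10 reads in the library labelled double KO.

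TH2 cells are helper T cells that make interleukins 4, 5 and 13 under the transcription factor GATA3 and act on eosinophils, mast cells and B cells. Of 21 measured genes of a TH2 cytokine and lineage list, 17 rose and 1 fell, against 11.6% and 6.05% of all genes measured, and the list's median log2 ratio was 2.67. Il5, which encodes the eosinophil growth factor, had 11, 2290, 11 and 1990 reads, so the 2 libraries without an Itch deletion in their label were low and the other two were high. Its ratio to WWP2 KO was 167-fold (95% counting interval 93.1 to 335). Il13, the cytokine of mucus and airway responses, had 117, 3206, 219 and 2997 reads and was 12.6-fold higher (11 to 14.5). Il4, which drives B cells toward IgE and T cells toward the TH2 state, had 27, 236, 31 and 460 reads and was 13.7-fold higher (9.51 to 20.4). Il9, a mast cell growth factor, had 1, 406, 4 and 41 reads. It was 9.46-fold above WWP2 KO (3.42 to 36.3) but remained far below the Itch KO library.

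Transcription factors and receptors of this list rose too. Gata3 had 621, 2814, 654 and 7536 reads and was 10.6-fold higher (9.81 to 11.5). Maf, a transactivator of Il4, had 470, 1173, 509 and 5066 reads and was 9.18-fold higher. Il1rl1 encodes ST2, the receptor for the alarmin IL-33. It had 249, 1785, 266 and 19545 reads, a 67.8-fold difference (60.1 to 76.8). Epas1, the hypoxia-inducible factor HIF-2 alpha, had 298, 1134, 279 and 18116 reads and was 59.9-fold higher. For these 4 genes the library labelled double KO stood above all 3 others, with Itch KO next and wild type and WWP2 KO close together at the bottom.

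Cysltr1, a cysteinyl leukotriene receptor, had 43, 764, 45 and 3518 reads (log2 ratio 6.11), and Pparg, a lipid-sensing nuclear receptor, had 14, 91, 6 and 252 (4.88). Areg, an epidermal growth factor family ligand, rose by a log2 ratio of 2.67 and Nfil3 by 2.50. Smaller rises were seen for Il4ra (1.25), Ccr4 (1.18) and Crlf2 (1.02), the receptors for IL-4, CCL17 and CCL22, and TSLP. Irf4, a transcription factor shared by several effector lineages, was the member that fell, with 67135, 69910, 66244 and 34474 reads (-1.06). Stat6, the signal transducer of IL-4, had a log2 ratio of -0.68, inside the 2-fold limits.

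**Figure D2:**
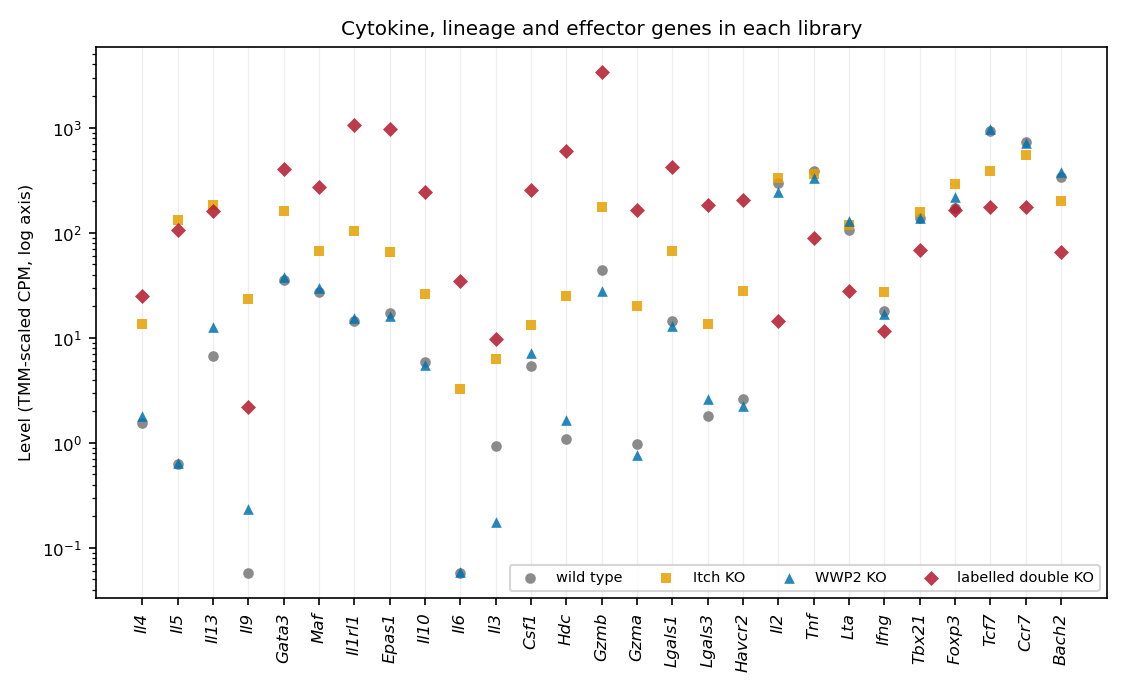
The y axis gives the level in CPM on a log axis for 27 cytokine, lineage and effector genes in each of the 4 libraries, 1 symbol a library. Red diamonds (labelled double KO) lie at the top for Gata3, Il1rl1, Epas1, Il10 and Gzmb and at the bottom for Il2, Tnf, Tcf7 and Bach2, while wild type and WWP2 KO symbols often overlap.

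Cytokines outside the TH2 set moved both ways. Of 33 measured cytokine genes, 14 rose and 8 fell. Il2, the T cell growth factor that is the classic readout of NFAT and AP-1 activity, was among the genes with the lowest ratios. It had 5139, 5779, 4226 and 270 reads, so that the library labelled double KO stood alone at the bottom, 17.0-fold below WWP2 KO (15 to 19.3). Tnf had 6662, 6270, 5690 and 1673 reads and was 3.69-fold lower (3.49 to 3.90). The neighbouring lymphotoxin genes Lta and Ltb fell as well, by 2.22 and 1.51 on the log2 scale. Tnfsf11, which encodes RANK ligand, fell by 1.43 and Cd40lg, the helper signal to B cells, by 1.19. Il22 had 129, 192, 100 and 26 reads (-1.98), and Pdgfb, a platelet-derived growth factor subunit, had 1358, 399, 1295 and 114 (-3.60).

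Among cytokines that rose, Il10, an anti-inflammatory product of several helper lineages, had 103, 455, 95 and 4524 reads, a 43.9-fold difference (35.9 to 54.4). Il6 had 1, 57, 1 and 641 reads. With 1 read in WWP2 KO its ratio of 591 has a counting interval from 106 to 23391. Il3, a growth factor of basophils and mast cells, had 16, 109, 3 and 182 reads and a ratio of 56.0 with an interval from 18.8 to 274. Csf1, the macrophage growth factor, rose from 124 reads in WWP2 KO to 4721, with 94 in wild type and 230 in Itch KO (5.11). Il1rn, the antagonist of the IL-1 receptor, had 4, 86, 10 and 572 reads (5.47). Ebi3, a subunit of IL-27 and IL-35, rose by 2.51, and Flt3l, Tnfsf10 and Osm by 1.85, 1.81 and 1.57. Ifng (-0.54), Csf2 (-0.79), Il21 (0.94), Tgfb1 (0.08) and Lif (-0.14) stayed within 2-fold. Il17a had 0, 5, 0 and 8 reads and was too low to be measured.

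Of 8 measured chemokine genes, 5 fell and 2 rose. Those that fell were Ccl3 (64, 98, 121 and 18 reads), Ccl4 (287, 526, 513 and 87), Xcl1 (67, 57, 53 and 7), Cxcl10 (921, 423, 1154 and 226) and Cxcl16. CCL3 and CCL4 attract monocytes and T cells, and XCL1 attracts dendritic cells with XCR1. The neutrophil attractants Cxcl2 and Cxcl3 rose instead, by log2 ratios of 2.42 and 5.50, with 15, 342, 27 and 1421 reads of Cxcl3.

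Genes of other helper lineages moved both ways. Of 16 measured genes of the interferon-gamma producing TH1 lineage, 3 rose and 4 fell. Among those that rose were the cytokine receptor chains Il12rb1 (2.79) and Il18rap (2.08), and among those that fell Lta, Il12rb2 (-1.37) and Tbx21 (-1.02). Tbx21, the lineage's master regulator, had 2402, 2754, 2370 and 1262 reads. It lay at the 2-fold line: with libraries scaled by total counts alone its log2 ratio was -0.98, and the list's split became 5 rising and 2 falling. Of 9 measured TH17 genes, 2 rose (Il1r1 and Batf) and 3 fell (Il22, Ccr6 and Irf4).

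Of 23 measured regulatory T cell genes, 12 rose and 0 fell. Foxp3, the factor that defines these cells, was not among them, with 3005, 5029, 3791 and 3039 reads (-0.44). The members that rose furthest were Il10, Entpd1 (39, 144, 53 and 2205 reads), Prdm1 (228, 889, 211 and 3620) and Itgae (63, 337, 95 and 1304). Entpd1 encodes the ectonucleotidase CD39, Prdm1 the repressor BLIMP1 and Itgae the integrin CD103. The receptors Tnfrsf9 (1.55), Il2rb (1.30), Tnfrsf4 (1.18) and Ctla4 (1.12) rose less, and Il2ra (0.32) and Ikzf2 (0.22) stayed within 2-fold. Of 17 follicular helper genes, which mark the T cells that help B cells in germinal centres, 4 rose and 6 fell. Icos (8425, 18934, 8003 and 39346 reads), Cxcr5, Tox2 and Batf rose, whereas Tcf7, Lef1, Cd200, Btla, Cd40lg and Il6ra fell. Bcl6, the follicular regulator, had a log2 ratio of -0.39.

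The receptors through which T cells sense cytokines rose more often than they fell, 12 against 2 of 33 measured. Il1r1, the signalling receptor for IL-1, had 8, 20, 4 and 690 reads, a 159-fold difference (61.9 to 586). Il1r2, its decoy, had 143, 290, 119 and 1489 (3.51). Il10ra rose by 2.36, Il7r by 2.06 and Il2rb by 1.30. The 2 that fell were Il12rb2 and Il6ra (-1.14), while the shared chain Il2rg (0.16) stayed put.

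Homing receptors also moved both ways. Of 21 measured genes, 11 rose and 5 fell. Several chemokine receptors that lead cells into inflamed tissue rose: Ccr1 had 5, 39, 7 and 988 reads (130-fold, 63.0 to 325), Ccr2 had 412, 1860, 368 and 10264 (4.68), and Cxcr6 had 964, 2622, 716 and 5428 (2.80). Ccr7, the chemokine receptor that brings naive cells into lymph nodes, fell, with 12601, 9584, 12378 and 3258 reads (-2.04). Cd69, an early activation marker that retains cells in tissue, had 37336, 29796, 32707 and 15799 reads (-1.17). Among 13 integrin genes 6 rose and 2 fell. Itga2 had 16, 185, 21 and 1001 reads (5.33), Itgb7, the gut-homing beta chain, 567, 1531, 611 and 4943 (2.90), and Itgb3 646, 2523, 668 and 3933 (2.44). Itga5 (-2.47) and Itga4 (-1.39) fell, the latter although its partner Itgb7 rose.

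Genes of effector and memory T cells had the second highest median of the 45 lists of gene function. Of 28 measured, 21 rose and 2 fell, with a median log2 ratio of 2.78. Gzmb encodes granzyme B, a serine protease of cytotoxic granules. It had 767, 3025, 480 and 62971 reads, and its 121-fold ratio (111 to 133) came with the largest gain in CPM of any gene that rose, from 28.0 to 3388. Gzma had 17, 345, 13 and 3040 reads (216-fold, 126 to 406). Of 10 measured cytotoxic granule genes 4 rose (40%, beside 11.6% of all genes) and 0 fell. Those that rose were Gzma, Gzmb, Gzmc (3.81) and Nkg7 (2.98), while Srgn (0.48), Lamp1 (-0.24) and Fasl (-0.96) stayed within 2-fold. Near-identical members of the granzyme family can share reads, which the counting could split.

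Other effector genes rose in the same graded order. The galectins Lgals1 and Lgals3, which bind cell surface glycans, had 252, 1156, 220 and 7919 reads and 31, 234, 45 and 3430 reads. S100a6 had 106, 448, 82 and 3737, and Vim, the intermediate filament vimentin, had 1993, 7594, 2256 and 20848. The calcium-binding S100a4, S100a10 and S100a11 rose by 3.01, 1.29 and 1.89, and Ahnak and Crip1 by 3.02 and 3.69. For each gene in this paragraph with 4 values the library labelled double KO was highest and Itch KO second.

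Genes of naive and quiescent T cells moved the other way, with 10 of 26 lower and 1 higher. Tcf7, the transcription factor TCF-1 of naive and memory stem-like cells, had 16212, 6746, 16727 and 3257 reads and was 5.57-fold lower (5.36 to 5.78). Bach2, a repressor of effector genes, had 5943, 3497, 6428 and 1225 (-2.51), Lef1 had 1356, 927, 1620 and 570 (-1.62), and Foxp1 had 14124, 9919, 13867 and 4529 (-1.73). Dapl1 (-2.29), Actn1 (-2.22) and Pik3ip1 (-2.11) fell too. Not all of the list followed: Il7r, the receptor for the survival cytokine IL-7, had 876, 1188, 1070 and 4848 reads and rose, and Foxo1 (0.18), Klf2 (-0.17) and Btg1 (0.30) stayed within 2-fold.

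A list of receptors that restrain T cells, which also held ligands and the activating receptor Cd226, split into genes that rose and fell. Of 17 measured genes of this coinhibitory receptor list, 7 rose and 5 fell. Havcr2, which encodes TIM-3, had 45, 486, 38 and 3850 reads (6.47), Lag3 had 49, 234, 57 and 1716 (4.75), and Tigit had 715, 2721, 611 and 8719 (3.71). Ctla4 had 2696, 4825, 2920 and 6877 (1.12). Pdcd1, or PD-1, had 530, 845, 451 and 617 reads (0.33) and stayed within 2-fold. Cd200, Cd226, Btla, Cd274 (the PD-1 ligand) and 4632428N05Rik (the symbol in these files for Vsir, or VISTA) fell, by 1.61, 1.51, 1.32, 1.15 and 1.07. Among 19 costimulatory and TNF receptor genes 4 rose and 1 fell. Tnfrsf8, or CD30, had 99, 301, 74 and 2624 reads (32.7-fold higher), and Tnfrsf25, or DR3, had 911, 636, 1155 and 376 (-1.73).

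Genes of T cell receptor signalling, which PMA and ionomycin bypass, and of NF-kB signalling mostly stayed within 2-fold. Of 37 measured T cell receptor signalling genes, Cd4 (1.59) and Cd3g (1.44) rose and Cd5 (-1.23), a negative regulator of the receptor, fell, while Zap70 (-0.08), Lat (-0.06) and Lck (0.22) stayed within 2-fold. Of 29 NF-kB genes and targets, Bcl3 (454, 1053, 544 and 2864 reads) rose and Tnf and Nfkbie fell. Nfkbie lay at the line, with -1.01 and, scaled by total counts, -0.97.

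Of 28 calcium and NFAT genes 6 rose (21.4%, beside 11.6% of all genes) and 0 fell. Nfatc2 rose by 1.65 and Nfatc1 had a ratio of -0.41. The calcium pumps Atp2b4 (270, 882, 301 and 1669 reads) and Atp2a3, the release channel Itpr1 and the calcineurin subunit Ppp3cc rose by 2.35, 1.67, 1.77 and 1.59, and the store-operated channel Orai1 (-0.70) and its sensor Stim1 (-0.46) did not pass. Immediate early genes are transcribed within minutes of stimulation. Of 33 measured, 9 rose (27.3%) and 3 fell (9.09%), beside 11.6% and 6.05% of all genes. The AP-1 subunits Fos (1208, 2173, 1249 and 3922 reads), Fosb (1.78), Jun (574, 1161, 719 and 2212), Jund (1.11) and Fosl2 (1.06) rose. Junb, a substrate of Itch as protein, had 8819, 14056, 8008 and 15843 reads (0.87). Myc had a ratio of -0.64 and Nr4a1 one of -0.06.

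Feedback regulators of MAP kinase signalling went both ways, 4 up and 3 down of 19. Dusp16 (433, 561, 435 and 2524 reads), Dusp10, Errfi1 and Dusp6 rose. Spry1, an inhibitor of Ras signalling, had 2666, 4675, 3487 and 649 reads (-2.54). Spred1 and Dusp2 fell by 1.05 and 1.03, the latter a call lost with total counts (-0.98).

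Cytokine signal transducers had a median log2 ratio of 0.02. Of 24 JAK, STAT and SOCS genes 4 rose (16.7%) and 2 fell (8.33%), shares near the 11.6% and 6.05% of all genes. Socs3 had 354, 1279, 351 and 4794 reads (3.65), Jak3 1016, 2121, 1376 and 5849 (1.97), and Cish, a target of STAT5, 3867, 9198, 4130 and 11189 (1.32). Pim2, a survival kinase, fell (-1.30). Of 24 tyrosine phosphatase genes 6 rose (25%) and 2 fell (8.33%). Ptpn13 had 265, 1267, 328 and 8136 reads (4.51) and Ptpn3 94, 259, 93 and 1298 (3.66). Ptpn6, or SHP-1, a brake on receptor signalling, had 2391, 1174, 2214 and 1196 reads, so that the pair with Itch in its label was low. It was 2.01-fold lower, a call lost with total counts (log2 ratio -0.96).

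In a list of NEDD4 family, adaptor and related genes, 4 of 25 measured rose (16%, beside 11.6% of all genes) and 0 fell. They were Wwp2, Rnf128 (14, 33, 15 and 111 reads), Nedd4 (45, 68, 34 and 157) and Tmem55a (75, 72, 63 and 170). Wwp2 is the gene lost in WWP2 KO, so its rise was fixed by the choice of libraries, and the share without it is near that of all genes. Rnf128, which encodes GRAIL, a ligase of T cell anergy, and Tmem55a are not members of the NEDD4 family. The adaptors Ndfip1 (0.66) and Ndfip2 (0.53), which activate Itch, and the close relative Wwp1 (-0.33) stayed within 2-fold. Of 19 anergy genes 2 rose, Lag3 and Rnf128, and Dtx1 fell (-1.57). These shares, 10.5% and 5.26%, are near those of all genes.

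Of all 45 lists of gene function, the mitosis list held the largest share of members that rose. Cells build the spindle and condense chromosomes with proteins whose genes are repressed in resting cells and switched on in G2 and M phase, in mammals through CHR elements and CCAAT boxes in their promoters. Of 60 measured mitosis and spindle genes, 57 rose and 0 fell, with a median log2 ratio of 2.88. The other three, Kif20b (0.72), Smc4 (0.40) and Bub3 (0.35), were positive too. Mki67, the proliferation antigen Ki-67, had 289, 1413, 243 and 4123 reads and was highest in the library labelled double KO and next highest in Itch KO. Ccnb1, the mitotic cyclin B1, had 46, 210, 27 and 632 (4.34), and its kinase Cdk1 had 34, 145, 36 and 544 (3.73). Plk1, a mitotic kinase, had 59, 201, 43 and 594 (3.61), and Top2a, the topoisomerase of chromosome condensation, 403, 1737, 438 and 4613 (3.27). Cdc20, an activator of the anaphase-promoting complex, had 70, 173, 69 and 399 (2.38). The smallest rise was that of Plk4, with 270 reads in WWP2 KO and 599 (1.03).

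Replication genes rose less evenly. Of 53 measured, 25 rose (47.2%, beside 11.6% of all genes) and 0 fell, with a median of 0.64. Most of these were genes of low level, as 6 rose with a mean of at least 10 CPM. Among all genes of 2 to 10 CPM, 26.3% rose. E2f8 (23, 90, 18 and 334 reads), Mcm10 (14, 83, 11 and 214), Clspn (3.85), E2f2 (3.74), Rrm2 (3.32) and Tyms (2.91) rose most. Members of the helicase and its clamp, Mcm2 (0.00), Mcm4 (0.14), Mcm6 (-0.05) and Pcna (0.06), stayed where they were. Among cyclins and inhibitors of the G1 phase, 2 of 14 rose (14.3%), Cdkn2c (13, 48, 13 and 145) and Rbl2 (1.01). As many fell, Ccnd2 (20538, 30500, 22698 and 11259) and Cdk4 (4499, 3839, 3745 and 1864), beside 6.05% of all genes.

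Promoters of the mitosis list were looked at because its members moved together. The sequences were RefSeq windows of GRCm38.p6, 250 bases before to 50 after a start, found for 7986 of the 9926 measured genes. The letters TTTGAA (the CHR element), on either strand, were in 69.1% of 55 windows of the mitosis list, 11.9% of the 10160 windows of all genes measured and 17.9% of the 32851 windows of the whole table. CCAAT was in 69.1%, 37.8% and 37.4%. Within the list the 35 genes with TTTGAA had a median log2 ratio of 2.98 (33 of 35 rose) and the 17 without it one of 2.68 (17 of 17 rose), while 8 had no window. A match is a description of letters, not a site shown to be bound. The 250 bases before the start are shown for 3 of the genes named above, chosen after their values were seen, with every TTTGAA and CCAAT of either strand in capitals, 5′ to 3′ along the gene.
Mki67, chr7:135716380-135716629, minus strand: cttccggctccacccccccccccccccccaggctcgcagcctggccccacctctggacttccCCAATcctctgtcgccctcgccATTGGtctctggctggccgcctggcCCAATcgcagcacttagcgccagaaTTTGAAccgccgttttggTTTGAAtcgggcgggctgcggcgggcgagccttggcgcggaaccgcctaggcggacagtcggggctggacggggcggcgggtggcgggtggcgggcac
Cdk1, chr10:69352913-69353162, minus strand: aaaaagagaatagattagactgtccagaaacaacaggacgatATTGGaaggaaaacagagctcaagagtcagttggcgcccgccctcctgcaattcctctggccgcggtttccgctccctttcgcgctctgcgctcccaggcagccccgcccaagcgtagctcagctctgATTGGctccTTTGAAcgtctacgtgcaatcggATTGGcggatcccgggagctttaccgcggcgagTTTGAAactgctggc
Cdc20, chr4:118437344-118437593, minus strand: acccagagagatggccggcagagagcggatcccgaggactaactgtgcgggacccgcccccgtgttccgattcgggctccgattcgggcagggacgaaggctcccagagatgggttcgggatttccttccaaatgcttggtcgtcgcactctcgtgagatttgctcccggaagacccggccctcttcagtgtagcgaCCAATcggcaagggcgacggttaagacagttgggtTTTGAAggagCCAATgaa
In each of these promoters a TTTGAA follows a CCAAT or its reverse complement ATTGG.

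**Figure D3:**
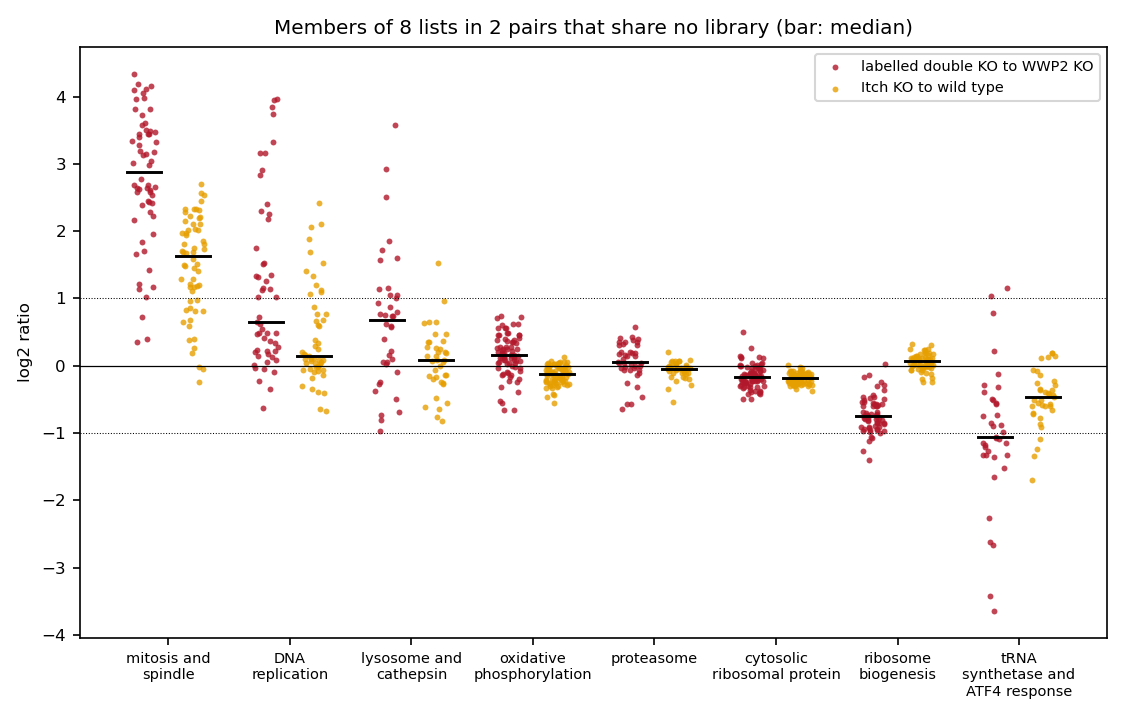
The y axis gives log2 ratios of the measured members of 8 lists, red for labelled double KO to WWP2 KO and orange for Itch KO to wild type, each point a gene and each black bar a list's median. Mitosis genes lie high in both pairs (medians 2.88 and 1.63), proteasome genes near 0 in both (0.05 and -0.04), and ribosome biogenesis genes low only among the red points (-0.75 against 0.07).

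Genes of protein synthesis went down by smaller amounts. Ribosome biogenesis genes encode the nucleolar machinery that makes ribosomal RNA and assembles it. Of 65 measured, 6 fell and 0 rose, with 6.05% of all genes falling. The median was -0.75, and Emg1 (0.02) was the 1 member with a ratio above 0. Ncl, or nucleolin, had 64167, 66429, 58419 and 30169 reads and lost the second largest amount in CPM of any gene that fell. Utp20 (6720, 5882, 6225 and 2552), Polr1b (5566, 6025, 5190 and 2332), Dkc1 (-1.12), Heatr1 (-1.07) and Wdr12 (-1.01) fell as well. Of 76 cytosolic ribosomal protein genes 0 passed, with ratios from -0.49 to 0.50. Their reads can be shared with pseudogenes. Of 75 oxidative phosphorylation genes and 41 proteasome genes 0 passed, and their medians were 0.15 and 0.05.

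Genes of amino acid supply fell as a larger share of their list, 19 of 37, than those of any other of the 45 function lists apart from the 8 chemokine genes. ATF4 is the transcription factor of the amino acid response, and its known targets include transporters, serine and proline synthesis enzymes and tRNA synthetases. In this list 2 genes rose, and the median was -1.06. The cystine transporter Slc7a11 had 203, 61, 103 and 7 reads (-3.64). The cationic amino acid transporter Slc7a3 had 156, 85, 177 and 16 (12.0-fold lower, 7.18 to 21.4), and the proline enzyme Pycr1 311, 122, 262 and 43 (-2.67). The kinase-like ATF4 inhibitor Trib3 had 454, 191, 279 and 61 (-2.27), and Phgdh, the first enzyme of serine synthesis, 10633, 5671, 9249 and 3174 (-1.66). In each of these 5 genes the library labelled double KO was lowest and Itch KO next lowest.

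Of the tRNA synthetases, Lars, Cars, Vars, Iars, Mars, Eprs and Sars fell, by 1.06 to 1.35 on the log2 scale, and Aars (-0.73), Wars (-0.75), Gars (-0.84) and Nars (-0.99) stayed inside 2-fold. Atf4 had 6414, 7089, 5594 and 7070 reads (0.22). Asns, asparagine synthetase and a classic target of the pathway, went the other way with 666, 762, 617 and 1156 reads (0.79), and Ddit4 (1.03) and Cebpb (1.15) rose.

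The letters TGATGNAA of the amino acid response element, on either strand, were in 36.7% of 30 promoter windows of the amino acid list (11 windows), 2.15% of the windows of all genes measured and 3.97% of the whole table. The 11 genes with the letters had a median log2 ratio of -0.90 (5 fell) and the 17 without it one of -1.06 (9 fell), while 9 had no window. The lowest ratios were -3.64 with the letters and -1.66 without. Slc7a11, Pycr1, Slc1a4 and Trib3, all of which hold them, were the lowest of the genes with a window. The 250 bases before the start are shown for 2 genes that fell and hold the letters, with the matches in capitals, 5′ to 3′ along the gene.
Slc7a11, chr3:50443614-50443863, minus strand: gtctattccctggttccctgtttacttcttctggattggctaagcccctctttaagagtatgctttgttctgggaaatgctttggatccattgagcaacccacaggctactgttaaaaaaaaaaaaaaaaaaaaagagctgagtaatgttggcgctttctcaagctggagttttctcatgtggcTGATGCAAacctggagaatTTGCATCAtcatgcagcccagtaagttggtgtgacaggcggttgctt
Pycr1, chr11:120643749-120643998, minus strand: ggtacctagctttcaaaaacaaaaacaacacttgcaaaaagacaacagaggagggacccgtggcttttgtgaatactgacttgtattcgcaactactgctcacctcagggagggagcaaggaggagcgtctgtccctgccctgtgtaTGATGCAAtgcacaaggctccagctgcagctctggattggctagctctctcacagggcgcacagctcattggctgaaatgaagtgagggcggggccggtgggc

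Of 35 glycolysis and hypoxia genes 7 rose (20%, beside 11.6% of all genes) and 2 fell, with a median of 0.43. Ldha (12334, 16097, 11018 and 24072 reads), Gapdh, Tpi1, Hif1a, Egln3, Slc16a3 and Ddit4 rose by 1.01 to 1.83 on the log2 scale. Vegfa (354, 223, 345 and 88) and Pdk1 (-1.40) fell. Gapdh has many pseudogenes that can take its reads. Of 36 cholesterol and fatty acid synthesis genes 4 rose, a share near that of all genes: the desaturase Scd2 (269, 224, 219 and 1336 reads), the sterol exporters Abca1 (1.72) and Abcg1 (1.13), and Elovl6 (1.57). Sqle (-0.61), an enzyme of sterol synthesis, stayed within 2-fold.

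Of 38 endoplasmic reticulum folding genes 5 rose and 0 fell, 13.2% beside the 11.6% of all genes that rose, so the count is near the background. Sec24d, a coat protein of export vesicles, rose furthest (121, 301, 128 and 1310 reads), and the list's median was 0.44. Of 38 lysosome and cathepsin genes 12 rose (31.6%) and 0 fell. Grn, or progranulin, had 32, 96, 29 and 397 reads (3.57), the protease Lgmn 61, 58, 53 and 451 (2.93), and the cathepsins Ctsd (1.72), Ctsb (1.60) and Ctsa (1.85) rose, whereas Ctsl (-0.97) and Ctss (-0.80) did not pass. Of 22 heat shock genes Hspa1a and Hspa1b rose, by 2.96 and 2.29, and Hspa4l fell (-1.36), shares (9.09% and 4.55%) near those of all genes. Hspa1a and Hspa1b are near-identical, so the split between them is uncertain.

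Redox genes included several large changes. Of 23 measured, 7 rose and 3 fell. Mt1, a metal-binding metallothionein, had 40, 88, 6 and 735 reads, and Mt2 had 28, 66, 8 and 282. WWP2 KO was lowest in both. Srxn1 had 132, 300, 80 and 1476 (4.06) and Hmox1, haem oxygenase, 139, 215, 89 and 965 (3.29). Ncf1, the p47phox subunit of the NADPH oxidase, had 1136, 322, 1208 and 57 reads and was 23.0-fold lower (17.6 to 30.5).

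Interferon-stimulated genes did not move together. Of 48 measured, 8 rose and 9 fell. Ifit1 (366, 194, 417 and 71 reads), Ifit2 (756, 330, 771 and 220), Ifit3 (236, 68, 150 and 22), Gbp2, Gbp5, Irgm1, Irgm2 and Ifi203 were among those that fell. Ifi204 (6, 24, 4 and 215), Mx1, Oas3, Oas2, Isg15, Isg20, Zbp1 and Ifi27l2a rose. Members of the guanylate-binding, Ifi200 and Ifi27 families resemble one another closely enough for reads to be shared. Of 18 BCL2 family genes Pmaip1 (168, 458, 145 and 950 reads), Bad and Bak1 rose and Bbc3 (525, 150, 380 and 121) and Bmf fell. These shares were 16.7% and 11.1%, beside 11.6% and 6.05% of all genes. Of 24 p53 targets 3 rose (Perp, Pmaip1 and Gtse1), a share near that of all genes, and 3 fell (Bbc3, Sesn1 and Sesn2).

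Hdc, the histidine decarboxylase that makes histamine, had 19, 433, 28 and 11148 reads, a 367-fold difference (254 to 553). It is a gene of basophils and mast cells as well as of some activated cells. Of 15 basophil and mast cell markers 2 were measured, Hdc and Kit, and Kit fell (-2.62). The 13 other basophil and mast cell markers apart from Kit had 58, 12, 37 and 32 reads in all, and Fcer1a, Ms4a2, Cma1, Mcpt4, Tpsb2 and Tpsab1 had 0 in all 4 libraries, while Mcpt8 had 0, 0, 2 and 12. Of 14 measured histamine and eicosanoid genes 7 rose and 0 fell. The receptors Ptgir (21, 73, 39 and 832 reads), Ltb4r1 (3, 52, 5 and 186), Cysltr1 and Cysltr2 (2.15) were among them, as was Hpgds, prostaglandin D synthase (77, 46, 62 and 221).

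Guidance and matrix genes, more often studied outside the immune system, included extreme ratios. Of 19 measured axon guidance genes 9 rose (47.4%) and 3 fell (15.8%), beside 11.6% and 6.05% of all genes. With a mean of at least 10 CPM, 7 rose and 1 fell. Efna5, an ephrin ligand, had 0, 17, 1 and 1113 reads, and its ratio of 1027 carries a counting interval of 184 to 40588. Epha2 (76, 144, 72 and 1047) and Sema4a (130, 243, 124 and 1443) rose, and Nrn1, neuritin, had 367, 185, 266 and 27 (-3.32). Of 22 measured matrix and protease genes 12 rose (54.5%) and 3 fell (13.6%), with a median of 1.19. With a mean of at least 10 CPM, 5 rose and 1 fell. Adam8 had 283, 1072, 166 and 8687 reads (5.58), the laminin chain Lama5 35, 170, 40 and 1542 (5.09), and Col1a1 1, 21, 3 and 209. Adamtsl3 had 0, 4, 0 and 327 and was 101-fold above a floor of 3 reads in WWP2 KO (lower counting limit 81.3). Efna5, Col1a1 and Adamtsl3 were measured only through the library labelled double KO, so the filter fixed the direction of their change. Adamts6 fell (449, 488, 533 and 67). Of 45 chromatin modifiers 3 rose and 7 fell, among them the DNA methyltransferase Dnmt3a (5262, 4894, 5503 and 2013) and the deacetylase Hdac7 (11322, 5998, 11416 and 3609).

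**Figure D4:**
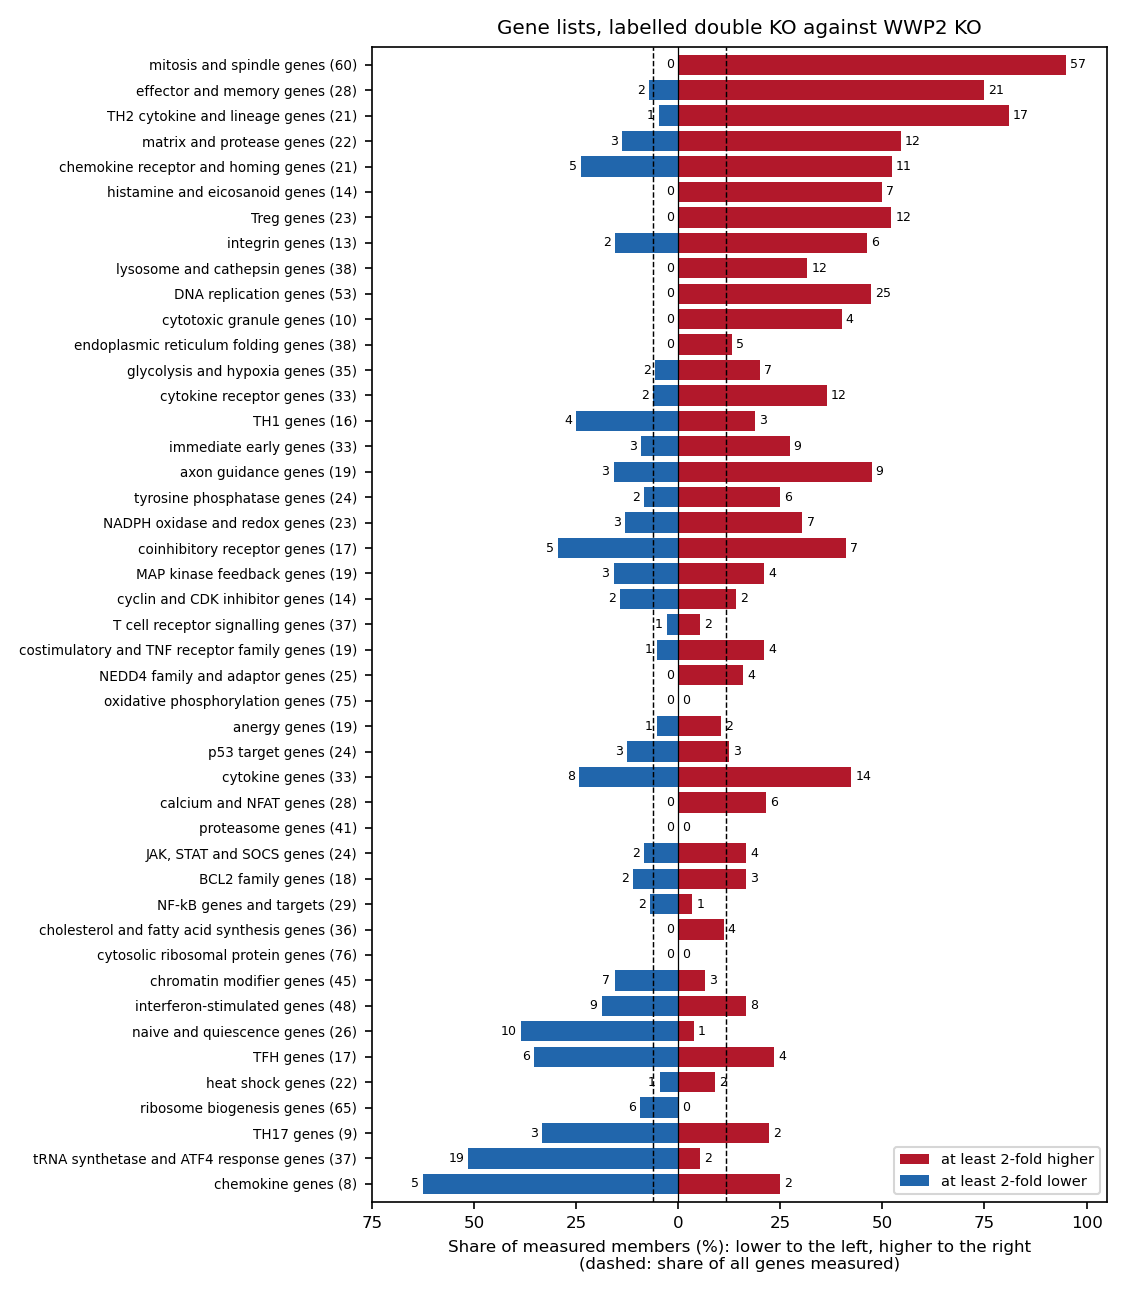
Bars show, for 45 gene lists ordered by median log2 ratio, the share of measured members that rose (red, right) and fell (blue, left), with the counts at the bar ends and the number measured in brackets. Dashed lines mark the shares among all 9926 genes, 11.6% and 6.05%. The longest red bar belongs to mitosis genes (57 of 60) and long blue bars to chemokine (5 of 8) and amino acid response genes (19 of 37).

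Several of the most extreme ratios fell outside the lists. Dnase1l3, a secreted nuclease, had 7, 45, 4 and 933 reads (215-fold, 83.8 to 791), and Sv2c, a synaptic vesicle protein, had 7, 129, 11 and 1687 (141-fold, 78.9 to 284). Gnai1, an inhibitory G protein subunit, had 1, 8, 0 and 359 reads. Pltp, the phospholipid transfer protein, had 0, 20, 0 and 242. They were 110-fold and 74.4-fold above a floor of 3 reads in WWP2 KO, with lower counting limits of 89.3 and 60.1. Gfra2, a receptor of the GDNF family, had 1, 4, 1 and 332, a ratio of 306 with an interval of 54.6 to 12132. In these 5 genes wild type and WWP2 KO had at most 11 reads.

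At the other end, Amigo2, a cell adhesion protein, had 760, 185, 860 and 37 reads (25.2-fold lower, 18.1 to 36.0). Arhgap29, a GTPase-activating protein, had 266, 86, 432 and 19 (24.6-fold lower, 15.6 to 41.3). Ttc28 had 1843, 680, 2416 and 194, the membrane protein Itm2a 8733, 4673, 8249 and 829, and Car2, carbonic anhydrase II, 970, 767, 905 and 103. Amz1 (76, 47, 83 and 9) had a log2 ratio of -3.05. In all of these genes the library labelled double KO was the lowest of the 4.

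By amount rather than ratio the order was different. Gains in CPM depend on transcript length as well as on molecules. After Gzmb, the largest gains were those of Actg1, gamma actin (32530, 44038, 30878 and 94774 reads), Icos, Tmsb4x, thymosin beta 4 (10644, 17563, 10458 and 31162), Il1rl1, Vim, Epas1, Hif1a, Laptm5 (9732, 9811, 9110 and 27417) and Baz1a (4172, 7792, 4218 and 18949). Reads of Actg1 and Tmsb4x can be shared with pseudogenes. The largest losses were those of Irf4, Ncl, Gbp2 (29574, 23390, 33725 and 13562), Cd69, B4galnt1, a ganglioside synthase (22437, 9763, 19286 and 4303), Tcf7, Mbp, Mdn1, Ccnd2 and Zfp36l1.

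The WWP2 KO library itself lay close to wild type. Against wild type, 28 genes (0.282%) were at least 2-fold higher in WWP2 KO and 16 (0.161%) lower. Of the 1155 genes that rose from WWP2 KO to the library labelled double KO, 1124 were within 2-fold of wild type in WWP2 KO, as were 597 of the 601 that fell. The exceptions among named genes bear on single ratios. Mid1, a microtubule-binding ubiquitin ligase, had 89, 185, 2570 and 3839 reads, high in both libraries with WWP2 in the label, and Klk1b22 had 0, 0, 115 and 508. The latter is a kallikrein of a near-identical family, so its identity is uncertain. Setbp1 had 79, 124, 333 and 915 reads. Pstpip2 had 19, 6, 251 and 32 and was high in WWP2 KO alone, which gives it a ratio of -3.01 against that library.

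Low values in WWP2 KO added to other ratios. Mt1 (6 reads), Il3 (3 reads), Pttg1 (216, 183, 63 and 315) and Phlda3 (170, 124, 46 and 75) were the lowest there after Wwp2. For Pttg1, a securin of mitosis, the rise of 2.17 went with a low WWP2 KO value, as the library labelled double KO had 315 reads beside 216 in wild type. These comparisons share the WWP2 KO library, so no likeness between them is drawn.

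The pair of Itch KO and wild type shares no library with the pair described here and sets a second ratio beside each gene. In it 485 genes (4.89%) passed the rule upward and 84 (0.846%) downward. Of the 1155 genes that rose to the library labelled double KO, 425 also rose in Itch KO, 36.8% of the first set and 87.6% of the second. Of the 601 that fell, 58 also fell, 9.65% and 69% of the sets. Among the 425, 404 had the larger ratio in the library labelled double KO, and among the 58, 50 had. The median log2 ratio of the genes that rose was 1.79 here and 0.73 in the Itch KO pair, and that of the genes that fell was -1.33 and -0.27. These genes were picked by their ratios here, which by itself favours larger medians here, so no difference in strength is read from them. Across all 9926 genes the ratios of the pairs had a Pearson correlation of 0.70 and a Spearman correlation of 0.45, given as a description, since genes are not independent replicates.

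**Figure D5:**
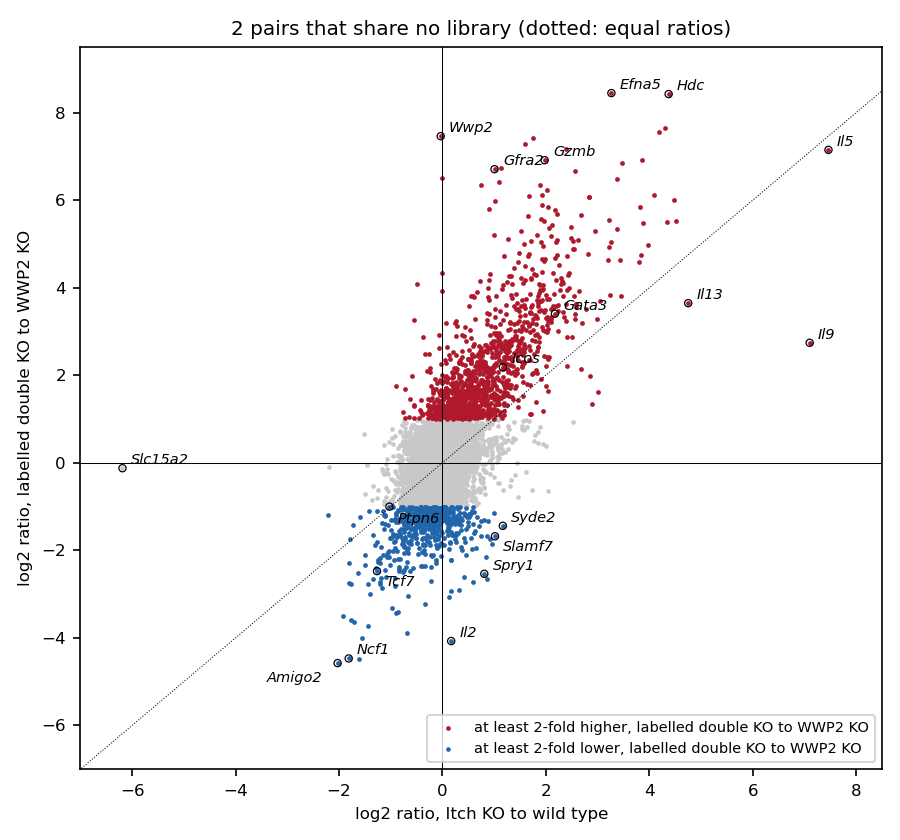
Each point is a measured gene, with the log2 ratio of Itch KO to wild type on the x axis and of labelled double KO to WWP2 KO on the y axis. Red and blue points rose and fell in the latter pair, and the dotted line marks equal ratios. Most red points lie above the line, Il9 and Il13 below it, and Slc15a2 far to the left at a ratio near 0 on the y axis.

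The lists differed in how the pairs compared. Mitosis genes rose in both, 57 of 60 here and 44 of 60 in the Itch KO pair, as did TH2 genes, 17 and 16 of 21. Lysosome genes rose in 12 of 38 here and 1 of 38 there, and tRNA synthetase and ATF4 genes fell in 19 of 37 and 4 of 37. Ribosome biogenesis genes had medians of -0.75 and 0.07, and chemokine genes -2.10 and 0.90. These differences rest on 1 library a group and were not tested.

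Single genes stood apart between the pairs. Il9 had the largest shortfall, a log2 ratio of 2.74 here and 7.10 in the Itch KO pair. Il2 had -4.07 and 0.17, Ccl4 -2.65 and 0.87, Spry1 -2.54 and 0.81, Ccl3 -2.73 and 0.60, and Rgl1, a Ral activator, -2.91 and 0.32. Each of these 5 genes was low in the library labelled double KO and not in Itch KO. In the other direction, after Wwp2, Ifi27l2b had 0 reads in 3 libraries and 189 in the library labelled double KO. That was 58.1-fold above a floor of 3 reads in WWP2 KO, with a lower counting limit of 46.8. Slc15a2, a peptide transporter, had 506, 5, 493 and 490 reads, lacking in Itch KO and level between the libraries compared (-0.12). No gene rose here and fell in Itch KO past the rule, and 2 fell here and rose there, Slamf7 and Syde2.

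Other cell types were checked by 13 marker lists, since splenic T cell preparations can carry them. Among defining markers chosen after their values were seen, several were at or near 0: Pax5 had 0 reads throughout, Cd8a 2, 9, 4 and 2, Ncr1 0, 2, 0 and 3, Csf1r 0, 0, 0 and 2, and C1qa and the globins 0. Of 14 B cell markers 1 was measured, and their summed level was 7.38, 8.19, 6.30 and 3.28 CPM. The 15 monocyte and macrophage markers, 2 of them measured, summed to 6.81, 19.1, 6.18 and 22.0 CPM, and the 6 CD8 T cell markers to 27.5, 32.2, 21.5 and 13.1. The 12 NK cell markers, 2 of them measured, summed to 7.44, 14.7, 6.65 and 56.4 CPM, and Itga2 alone gave 53.9 of the last value. Of 7 measured genes of the dendritic cell list 5 rose, the class II genes Cd74 (257, 878, 222 and 1362 reads), H2-Aa (24, 207, 23 and 81), H2-Ab1 and H2-Eb1 and the chemokine receptor Xcr1 (54, 113, 48 and 322). The sum of its 14 genes was 61.2, 128, 52.8 and 133 CPM, and Clec9a had 0, 1, 0 and 0 reads. Each of 4 further lists held genes that rose. Of 3 measured stromal and endothelial markers Epcam (346, 655, 443 and 2056 reads) and Col1a1 rose, and the 14 genes summed to 95.6, 101, 104 and 191 CPM, with Col3a1 at 0, 0, 0 and 1 reads. Of 8 platelet markers 1 was measured, Itgb3, which rose, and the list summed to 39.2, 147, 40.5 and 214 CPM, with Pf4 at 0 throughout. Of 4 measured plasma cell markers Prdm1 and Sdc1 (7, 27, 13 and 172 reads) rose and Irf4 fell, and the list, most of it Irf4, summed to 4019, 4240, 4024 and 2327 CPM, with Tnfrsf17 at 0 throughout. Of 10 eosinophil markers 1 was measured, Ccr3, which rose, and the list summed to 3.29, 8.19, 2.86 and 8.23 CPM, with Ear1 and Prg3 at 0 throughout. The monocyte list's Cd68 (52, 103, 56 and 354 reads) and the basophil and mast cell list's Hdc rose too, while Kit of the latter list fell. Of 2 measured erythroid markers Car2 fell, and of 12 neutrophil markers 1 was measured and did not pass. Zbtb16, the factor of NKT cells, fell (277, 311, 293 and 40 reads), as did Klrb1c (88, 37, 57 and 12). The part of these cells in the differences above was not tested.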

How the data were processed

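RNA of splenic CD4+ T cells was sequenced in 4 libraries, 1 per genotype. The deposited values are counts, whole reads per gene that the authors obtained with Bowtie 1.0.0, TopHat 1.4.1 and HTSeq 0.7.1 on mm9, per the submitters' processing notes. The annotation, the strand setting and the read length are not given here. Reads shared by overlapping, antisense or near-identical genes could be split by that counting.

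Counts were scaled with TMM factors over all 4 columns (edgeR 4.0.16, R 4.3.3) and genes with a mean of at least 2 CPM were kept. Log2 ratios used a prior count of 2. A gene passed where the ratio was at least 2-fold and its exact conditional binomial 95% interval excluded 1. That interval covers counting error only, and a library with 0 reads was set to a floor of 3 counts. With 1 library a side no test was run. The calculation was tested on simulated data. Alternatives were DESeq2 1.42.0 size factors, total counts, factors of the pair alone, a prior count of 0.5, no filter or a mean of at least 10 CPM, a 3-fold rule and an interval wholly beyond 2-fold. No value column was left unmapped.

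The members, the 59 gene lists and the promoter motifs were chosen with earlier results of these data known. Named genes are both targets, the 15 ratios at either end among genes past the rule, the 10 largest gains and losses in CPM, 24 fixed genes, up to 4 members of each list at either end, the 6 largest differences either way between the pairs, genes past the rule in opposite directions, and the 5 genes at either end of WWP2 KO against wild type. Rankings skipped models without a gene name, small RNAs, receptor gene segments, Xist and Y-linked genes. Other list members were named, and the promoters shown were picked, after their values were seen. Some genes that the rule names are not reported here.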

Additional observations from a re-analysis of the deposited data

Results flagged for a closer look

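Of genes past the rule in both pairs, 2 moved in opposite directions. Slamf7, a receptor of the SLAM family, was lower against WWP2 KO by a log2 ratio of -1.68 and higher in the Itch KO pair by 1.02. Its reads numbered 398 in the library labelled double KO against 1181 in WWP2 KO, and 2161 in Itch KO against 1067 in wild type. Syde2, a GTPase-activating protein, had ratios of -1.44 and 1.17, from 29 reads against 76 in the first pair. The difference between the pairs was not tested, since each side is 1 library.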

How the results depend on the processing

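The 1155 genes that rose to the library labelled double KO became 1780 with no filter on low values, 625 with a mean of at least 10 CPM and 690 with a 3-fold rule. The 601 that fell became 392, 183 and 379 with at least 10 CPM, a 3-fold rule and an interval wholly beyond 2-fold. For Itch KO against wild type, the 485 higher genes became 233, 227 and 291 under these 3 settings, and the 84 lower genes 45, 16 and 36, or 183 with no filter. These counts moved because the settings test fewer or more genes or ask for a larger fold. DESeq2 size factors gave 1157 higher and 598 lower, and total counts 1217 and 546, raising the median log2 ratio of all genes by 0.05. Among 290 named genes 0 changed direction under any setting run, and total counts ended 5 calls, among them those of Dusp2, Nfkbie, Ptpn6 and Tbx21. Under the 3-fold rule 52 mitosis genes rose and 6 amino acid response genes fell. No paired analysis was possible because each genotype has 1 library, and for the same reason no library could be left out in turn. Depth limits genes with under 10 reads in a library, where intervals span several fold.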

Other observations

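The genes here were picked after their values were seen, and reads are given in the same order of libraries as in the text before. Secreted peptides and proteases outside the lists rose. Penk, the enkephalin precursor, had 968, 2443, 933 and 14354 reads (14.2-fold). Calcrl, part of the receptor for the peptide CGRP, had 495, 933, 440 and 9516 (4.31), and Calca, which encodes that peptide, had 5, 37, 6 and 301 (5.14). Hc, complement C5, had 34, 146, 32 and 2124 (61.2-fold), the stromelysin Mmp10 had 1200, 2250, 661 and 13085 (18.3-fold), and the protease Capn2 had 399, 1269, 369 and 10647 (26.6-fold). Cyp11a1, the enzyme that starts steroid synthesis from cholesterol, had 6, 13, 4 and 358 reads (82.6-fold). Padi4, a peptidylarginine deiminase, had 4, 17, 2 and 289, a ratio of 133 with a counting interval of 36.6 to 1106. In each of these genes the library labelled double KO was highest and Itch KO next.

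Transcription factors outside the lists split. Arnt2 (18, 72, 13 and 1315 reads), Hhex (10, 54, 12 and 778), Cebpa (17, 46, 14 and 293), Etv6 (671, 1661, 725 and 6589) and Runx2 (208, 553, 179 and 1468) rose. Id3, an inhibitor of E proteins, had 1109, 354, 750 and 140 (5.81-fold lower), and Sox4 had 662, 493, 568 and 119 (5.17-fold lower). Samhd1, a dNTP hydrolase, had 9786, 6054, 10559 and 2898 reads (3.95-fold lower), Igf1r had 2646, 3576, 3310 and 1016 (3.53-fold lower), and Cd24a had 1049, 1874, 1372 and 334 (4.45-fold lower).

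Families grouped by symbol differed from each other. Of all genes measured, 11.6% rose and 6.05% fell. Of 8 measured annexin genes 7 rose, with a median log2 ratio of 2.54, against 1.06 in the Itch KO pair. Of 25 kinesin genes 13 rose and 1 fell, with a median of 1.13. Several that rose, among them Kif2c, Kif4 and Kif11, were already counted in the mitosis list. Of 9 guanylate-binding protein genes 1 rose and 5 fell, with a median of -1.23. Solute carrier genes, of which 26 rose and 19 fell, had a median of -0.02. Of 49 Cd genes 10 rose and 13 fell.

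Reads of the agouti gene, written a in these files, numbered 28 in the library labelled double KO and 0 in each of the other 3. That was 8.61-fold above a floor of 3 reads in WWP2 KO. With a mean under 2 CPM, the gene was too low to be among those measured. Ahcy (2753, 3308, 2557 and 6014 reads, log2 ratio 1.12) and Itch lie near it in the RefSeq GRCm38.p6 gene order. Whether position has a part in these reads was not tested.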
